A study of Mus musculus with 16 samples.

Results

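Selenoproteins carry selenocysteine, an amino acid inserted at an in-frame UGA codon with the help of a hairpin in the mRNA. Liver is the main organ that turns dietary selenium into circulating selenoprotein, and its selenoproteins remove peroxides, reduce thioredoxin, activate thyroid hormone and serve protein quality control in the endoplasmic reticulum (ER). The 9 genes described here are Selenop, Gpx1, Gpx4, Txnrd1, Txnrd2, Dio1, Selenof, Selenos and Selenok, of 18194 genes measured. They were found by symbol in the array's platform annotation, where 19 probe sets name 1 of them and no other gene. Each gene is represented by its brightest probe set on average, and its other probe sets serve as a check. The genes were chosen by their expression differences between the diets in these same livers, in which Selenof was among the lowest genes with the extract. Their diet differences are therefore a description, with no test.

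Liver RNA was measured on 3' oligonucleotide arrays in 16 male KK-Ay mice, 11 weeks old, 1 mouse per array. KK-Ay mice carry the yellow agouti allele and become obese and diabetic, and mice of both groups were of this strain, so no lean control was compared. For 43 days 8 mice ate a normal purified diet and 8 that diet plus 0.1% maple syrup extract (MSE). All were pair-fed, housed singly and fasted for 16 h before the liver was removed. The question was how the extract changes liver gene expression in this diabetes model. The labels give no batch or scan date, and arrays give no counts, so the number of mice limits the precision.

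The deposited values are on a log2-like scale and differ very little between mice. The SD of a gene over the 16 mice had a median of 5.63 millionths of a log2 unit, so no difference below can be read as a transcript's fold change. Values per mouse are therefore given as deviations from the gene's own mean over 16 mice, in millionths of a log2 unit, and diet differences in SDs within diets. A second measure sets every MSE mouse against every normal-diet mouse, 64 pairs in all, and counts the pairs with the lower value in the MSE mouse. Array medians of 15 mice spanned 43.4 millionths, and that of MSE replicate 6 lay 95.1 millionths below the next lowest. The hepatocyte markers measured, Alb, Apoa1, Ahsg, Cps1 and Apob, had levels of 12.53 to 14.34. Defining markers of other tissue that could be carried along were near the bottom of the scale, with 5.79 to 6.28 for 4 exocrine pancreas genes and 5.56 and 5.98 for the adipocyte genes Adipoq and Lep.

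On the deposited values, 7 of the 9 selenoprotein genes had a lower mean in MSE livers and 2, Selenop and Dio1, a marginally higher one. The median difference was -0.59 SDs, against -0.02 SDs over all genes, of which 51.7% had a lower mean. No diet group lay wholly below or above the other for any of the 9 genes, where 0.0275% of all genes lay wholly lower and 0.0220% wholly higher. In limma's fit 0 of the 9 genes passed at an adjusted p under 0.05, as did 0% of all genes tested. At an unadjusted p under 0.05 stood 2 of the 9, both lower with MSE, against 6.66% of all genes in either direction and 4.07% lower. These shares belong to the contrast with which the genes were picked and carry no weight as evidence. The directions depend on how arrays are scaled. Quantile normalization turned Selenos, Selenok, Txnrd1 and Txnrd2 to higher with MSE. Centring on array medians turned Selenof, Selenok, Gpx1 and Txnrd1, but without MSE replicate 6 it turned 1 gene, Selenop.

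**Figure D1:**
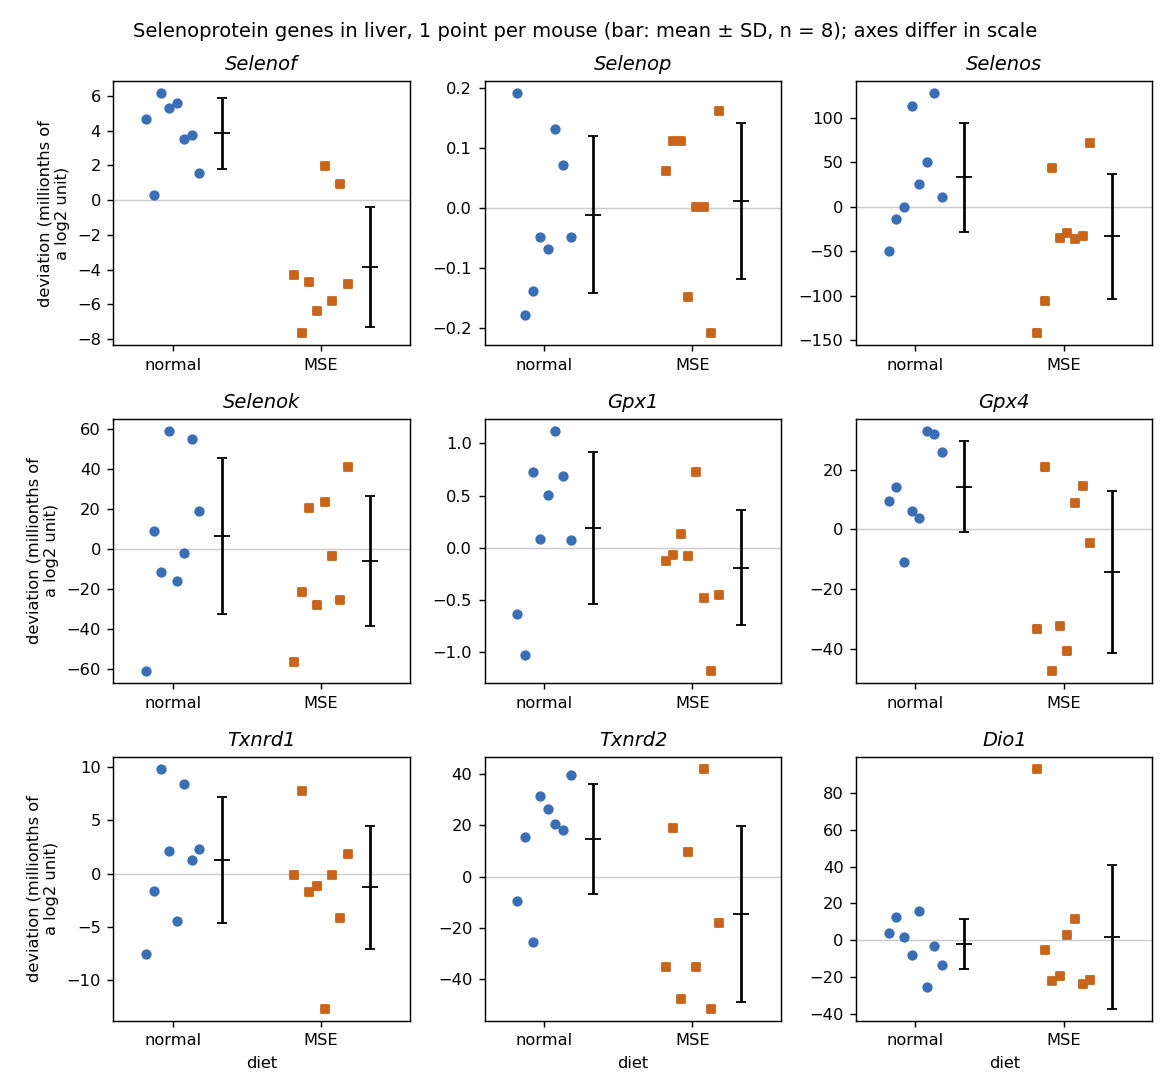
Each panel plots 1 selenoprotein gene, with 1 point per mouse by diet (8 normal, 8 MSE) as the deviation from the gene's mean in millionths of a log2 unit, and a bar for mean ± SD. The panels differ in scale, from 0.126 (Selenop) to 72.2 (Selenos) millionths of SD over 16 mice, and the diets overlap in all 9.

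Sequence is shown for the 3 ER genes. Selenof has the largest diet difference in SDs within diets as deposited. Selenos and Selenok are the 1 pair correlated at an unadjusted exact permutation p under 0.05 in both diets (adjusted p 0.160 in each). RefSeq promoter windows of GRCm38.p6 were found for all 9 genes, and the 250 bases before the annotated start are printed 5′ to 3′ on the sense strand. Capitals mark the CCAAT box (CCAAT) and the GC box (GGGCGG), on either strand.
Selenof (chr3:144570177-144570426, + strand): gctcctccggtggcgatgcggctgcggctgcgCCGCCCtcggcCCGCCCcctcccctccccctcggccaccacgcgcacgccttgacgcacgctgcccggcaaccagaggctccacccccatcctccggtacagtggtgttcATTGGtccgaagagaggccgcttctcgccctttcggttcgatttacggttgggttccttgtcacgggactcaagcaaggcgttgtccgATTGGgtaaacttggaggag
Selenos (chr7:66079399-66079648, + strand): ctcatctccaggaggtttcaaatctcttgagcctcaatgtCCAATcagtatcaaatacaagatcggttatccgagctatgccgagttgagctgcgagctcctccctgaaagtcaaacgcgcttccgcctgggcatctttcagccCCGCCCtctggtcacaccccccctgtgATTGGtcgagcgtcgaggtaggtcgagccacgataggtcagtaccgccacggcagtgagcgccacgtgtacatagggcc
Selenok (chr14:29968130-29968379, + strand): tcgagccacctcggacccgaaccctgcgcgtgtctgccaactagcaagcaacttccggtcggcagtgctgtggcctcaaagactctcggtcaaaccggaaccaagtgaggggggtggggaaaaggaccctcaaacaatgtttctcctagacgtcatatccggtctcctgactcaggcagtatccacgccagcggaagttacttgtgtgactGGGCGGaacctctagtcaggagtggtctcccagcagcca
The Selenof window holds a pair of CCAAT boxes on the reverse strand, at -108 to -104 and -20 to -16 from the start site, and a pair of GC boxes. The Selenos window holds 1 CCAAT box on each strand, at -210 to -206 and -79 to -75. The Selenok window holds no CCAAT box, and its 1 GC box lies at -39 to -34. Of 32851 windows of this length in the table, 33.8% hold a CCAAT box and 32.7% a GC box, so both are common letters. An E box (CACGTG), held by 6.02% of windows, lies in the Selenos window at -17 to -12. The core of the antioxidant response element (TGACNNNGC, both strands), held by 10.2% of windows, lies in a window of 2 of the 9 genes, Selenok and Txnrd1. In Selenok it lies at -44 to -36 and overlaps the GC box. The ER stress response elements I and II and the unfolded protein response core (TGACGTGG) were found in 0 of the 16 windows of the 9 genes, and in 0.113%, 0.0304% and 0.563% of all windows. A match is a run of letters and not a measured site.

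Selenof is a thiol-disulfide oxidoreductase-like protein of the ER that binds the glycoprotein folding sensor Uggt1. On the deposited values it had the largest difference of the 9 genes in SDs within diets. Its difference in millionths, -7.72, was smaller than those of Selenos (-66.2), Txnrd2 (-29.2), Gpx4 (-28.5) and Selenok (-12.7). It was larger than those of the remaining genes. On the normal diet its deviations were 0.291 at the lowest, 4.20 at the median and 6.17 at the highest. On MSE they were -7.67, -4.78 and 1.95. Of the MSE mice 6 lay below every normal-diet mouse, while replicates 5 and 7, at 1.95 and 0.951, lay within the normal range. The means were 3.86 ± 2.05 (SD, n = 8) and -3.86 ± 3.46 (SD, n = 8) millionths, a difference of -2.72 SDs, with the MSE mouse lower in 61 of 64 pairs. Leaving out each mouse in turn gave -3.57 to -2.57 SDs, but the difference was -0.30 SDs after quantile normalization and -1.27 SDs with the mean of both probe sets. The difference of -7.72 millionths is smaller than the -13.1 millionths by which the array medians differed between diets, and centring on them left 0.18 SDs. Without MSE replicate 6 the median difference was 0.689 millionths and the centred Selenof difference -0.58 SDs. The other Selenof probe set was 0.42 SDs higher with MSE, in 44 of 64 pairs. Its correlation with the first was r = -0.15 on the normal diet and r = 0.20 on MSE (Spearman's rho 0.10 and 0.50, exact permutation p 0.734 and 0.634, 8 mice each). Without the 2 mice farthest from the median r was -0.03 and 0.90 (exact p 0.974 and 0.0125), so on MSE r was higher without those mice.

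Selenos, also called VIMP, is an ER membrane protein that recruits the ATPase p97 (gene Vcp) to ER-associated degradation. Its deviations were -49.7, 18.3 and 128 on the normal diet (lowest, median, highest) and -142, -33.5 and 72.1 on MSE. Of the MSE mice 2, replicates 1 and 2, lay below the normal range and the other 6 within it. The means were 33.1 ± 61.4 (SD, n = 8) and -33.1 ± 69.9 (SD, n = 8), a difference of -1.01 SDs, with the MSE mouse lower in 49 of 64 pairs. All 3 Selenos probe sets were lower, the others with differences of -0.58 and -0.55 SDs.

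Selenok is a small ER membrane protein that works with the palmitoyltransferase Zdhhc6 and also binds p97. Its deviations were -61.1, 3.31 and 58.9 on the normal diet and -56.4, -12.5 and 40.9 on MSE. The MSE values lay within the normal range. The difference was -0.35 SDs, in 39 of 64 pairs, and -0.23 SDs for the second probe set.

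Gpx4, the glutathione peroxidase that reduces lipid hydroperoxides in membranes and holds back ferroptosis, had deviations of -10.9, 11.8 and 33.1 on the normal diet and -47.5, -18.4 and 21.0 on MSE. Of the MSE mice 4, replicates 1, 3, 4 and 5, lay below the whole normal range and the other 4 within it. The means were 14.3 ± 15.3 (SD, n = 8) and -14.3 ± 27.3 (SD, n = 8), a difference of -1.29 SDs, with the MSE mouse lower in 50 of 64 pairs. The second probe set differed by -0.46 SDs. The main difference was -0.34 SDs after centring on array medians and 0.00 after quantile normalization. With the replicate number as a block, the same mean difference was -2.36 of the SDs left after the block.

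Gpx1, the abundant cytosolic glutathione peroxidase whose mRNA is known to drop when selenium is short, had deviations of -1.03, 0.296 and 1.12 on the normal diet and -1.18, -0.0994 and 0.726 on MSE. Both diets covered nearly the same range, and the difference was -0.59 SDs, lower in 43 of 64 pairs. Its SD over 16 mice, 0.653 millionths, was smaller than that of all but 0.857% of genes.

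Selenop, the plasma protein that carries selenium from liver to other organs, had the smallest spread, 0.126 millionths over 16 mice. Its deviations were -0.179, -0.0488 and 0.191 on the normal diet and -0.209, 0.0312 and 0.161 on MSE. The diets overlapped throughout: the difference was 0.17 SDs, with the MSE mouse higher in 35 of 64 pairs, and it was -0.01 SDs without normal-diet replicate 2.

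Txnrd1, the cytosolic thioredoxin reductase, had deviations of -7.57, 1.68 and 9.86 on the normal diet and -12.7, -0.656 and 7.77 on MSE, a difference of -0.44 SDs, lower in 41 of 64 pairs. MSE replicate 5 alone lay below the normal range. Its other probe sets differed by -1.08 and -0.71 SDs, and the mean of all 3 by -0.99 SDs.

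Txnrd2, the mitochondrial thioredoxin reductase, had deviations of -25.3, 19.2 and 39.5 on the normal diet and -51.5, -26.6 and 42.1 on MSE. As for Gpx4, 4 MSE mice, replicates 1, 3, 5 and 7, lay below the whole normal range, while replicate 6 lay above it. The means were 14.6 ± 21.5 (SD, n = 8) and -14.6 ± 34.3 (SD, n = 8), a difference of -1.02 SDs, lower in 49 of 64 pairs. The other 3 probe sets differed by -1.01, -0.63 and 0.16 SDs, so 1 of the 4 went the other way. Centring left -0.29 SDs for the main probe set.

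Dio1, the deiodinase that makes the active thyroid hormone T3 in liver, had a higher mean with MSE through 1 mouse. Its deviations were -25.3, -0.653 and 16.1 on the normal diet and -23.9, -12.4 and 93.4 on MSE. MSE replicate 1 stood at 93.4, and the next highest MSE mouse at 11.3. The difference was 0.13 SDs, yet the MSE mouse was lower in 38 of 64 pairs. Without that mouse the difference was -0.67 SDs.

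**Figure D2:**
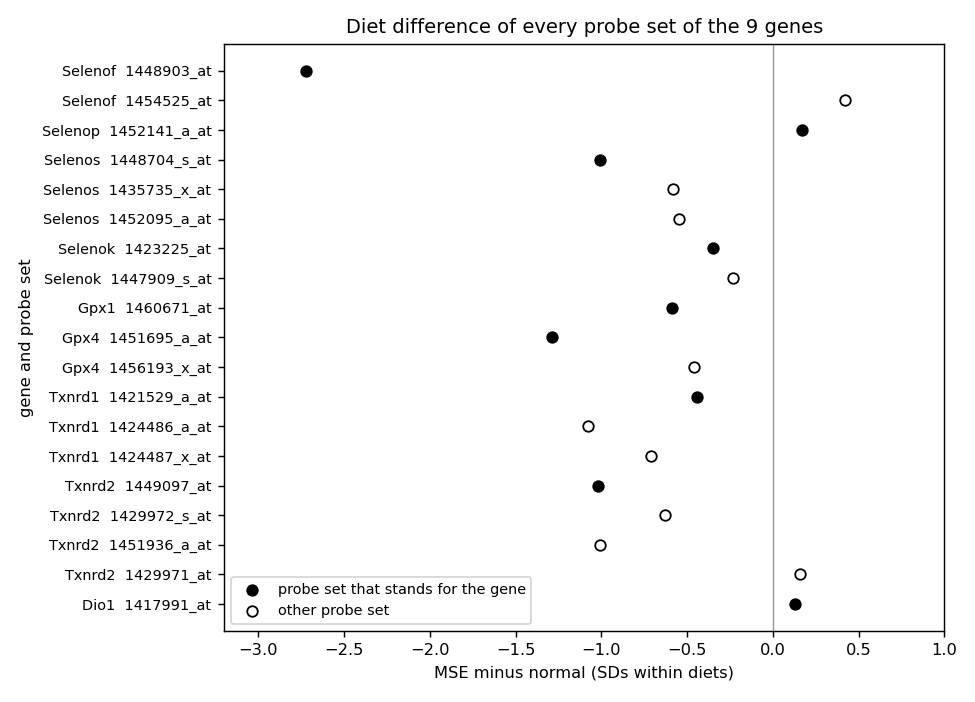
The diet difference (MSE minus normal, in SDs within diets) of all 19 probe sets of the 9 genes, with the probe set that stands for its gene filled. Most points, 15 of 19, lie below 0, and Selenof's probe sets lie at -2.72 and 0.42.

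Over all 19 probe sets, 15 had a lower and 4 a higher mean with MSE. By the false discovery rates in the authors' deposited table, 3 of the 19 were under 0.05 for lower expression with MSE and 0 for higher expression, against 2.74% and 1.98% of all probe sets. In the authors' deposited table the 3 are a pair of Selenos probe sets, at 0.00782 and 0.0191, and a Txnrd2 probe set at 0.0324. The remaining Selenos probe set stands at 0.0968, the main Gpx4 probe set at 0.0612 and the main Txnrd2 probe set at 0.0607 in the authors' deposited table. Selenof, with the largest difference in SDs, stands at 0.503 there. The test behind these rates is not given in the sources used here, and some exceed 1, so they were treated as scores. They belong to the contrast with which the genes were picked, so these shares too carry no weight as evidence.

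How far the small differences between mice repeat across probe sets of a gene was tested within each diet, a measure that the choice of the genes did not use. Whether the diets differ in it was not tested. For Selenok the probe sets correlated at r = 0.97 on the normal diet (rho 0.95, exact permutation p 1.74e-04, adjusted over 30 tests 0.00521). On MSE they correlated at r = 0.92 (rho 0.93, exact p 0.00179, adjusted 0.0264). Without the 2 mice farthest from the median the values were 0.98 and 0.75. For Selenos the main probe set and the dimmest one correlated at r = 0.88 and r = 0.87 (rho 0.81 and 0.74, exact p 0.00392 and 0.00528, adjusted 0.0264 for both). Without the 2 farthest mice these were 0.75 and 0.62. The main probe set and the remaining one had r = 0.76 and 0.59 (rho 0.79 and 0.57, exact p 0.0291 and 0.125, adjusted 0.0874 and 0.267). For Txnrd2 the main probe set and the one nearest to it in diet difference correlated at r = 0.83 on MSE (rho 0.90, exact p 0.00375, adjusted 0.0264, and 0.53 without the 2 farthest mice) and r = 0.35 on the normal diet (rho 0.02, exact p 0.394). For Gpx4 the correlations were r = 0.34 and r = 0.64 (rho 0.45 and 0.55, exact p 0.403 and 0.0785). Of 30 such tests 25 were positive and 8 passed by Pearson r. For rho, the adjusted exact p was 0.0335 for Selenok in both diets and 0.0456 for the Txnrd2 pair above on MSE. All others were above 0.05, with 0.109 and 0.138 for the main and dimmest Selenos probe sets. Over 9012 genes with several probe sets, the median r between the first pair was 0.25 on the normal diet and 0.24 on MSE. The Selenok and Selenos probe sets were thus closer to each other than those of a typical gene. The comparison was not matched for level or spread, and Selenos and Selenok had a larger SD than 93.7% and 89.5% of genes.

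Among the 9 genes, 36 pairs were compared within each diet, and 0 of the 72 tests passed after adjustment. At an unadjusted exact p under 0.05 stood 1 pair on the normal diet and 4 on MSE. Selenos and Selenok were the 1 pair to do so in both. They correlated at r = 0.87 on the normal diet (rho 0.67, exact p 0.00548, adjusted 0.160) and at r = 0.86 on MSE (rho 0.79, exact p 0.00665, adjusted 0.160). Without the 2 mice farthest from the median Selenos value r was 0.60 and 0.59, so much of the relation rests on those mice. Replicates 4 and 7 were the highest normal-diet mice and replicate 1 the lowest in both genes. Replicate 8 was the highest and replicate 1 the lowest MSE mouse in both. With every choice of probe set, 6 combinations in all, r lay between 0.60 and 0.88 on the normal diet and between 0.72 and 0.90 on MSE. Without the 2 farthest mice these ranges were 0.10 to 0.70 and 0.06 to 0.80, so several combinations rest largely on those mice. On the normal diet both genes also ran against the array median, at r = -0.75 for Selenos (rho -0.71, exact p 0.0355, adjusted over 18 tests 0.213) and r = -0.77 for Selenok (rho -0.76, exact p 0.0267, adjusted 0.213), which were -0.83 and -0.35 without the 2 farthest mice. On MSE these were 0.15 and 0.06 (rho 0.50 and 0.12, exact p 0.623 and 0.928). The part of the array median in the relation was not tested. Among all 9 genes and both diets, Txnrd2 on MSE was the 1 case that passed against the array median, at r = -0.79 (rho -0.95, exact p 4.96e-04, adjusted 0.00893, and r = -0.62 without the 2 farthest mice).

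**Figure D3:**
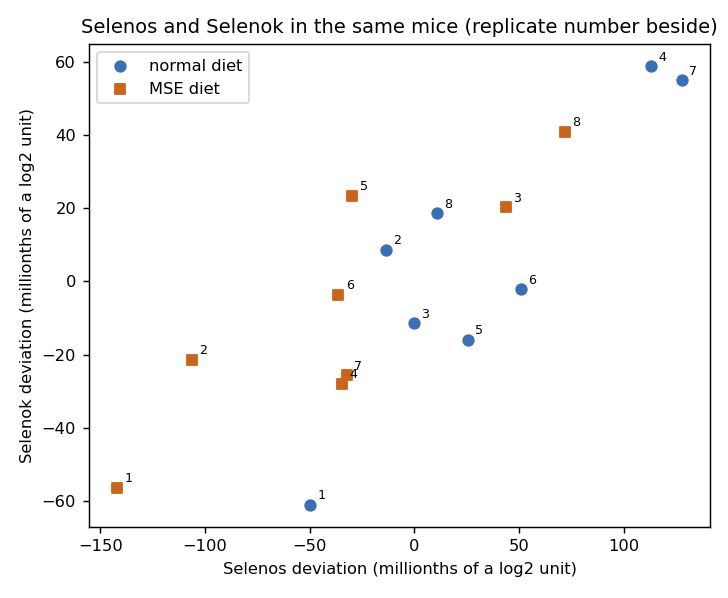
Selenos (x axis) against Selenok (y axis), both as deviations in millionths of a log2 unit, with 1 point per mouse, its replicate number beside it and its diet by colour and shape. Mice low for Selenos tend to be low for Selenok in each diet, but 0 tests passed after adjustment. Replicate 1 is the lowest for both genes in both diets.

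Selenof ran with neither of them. Its r with Selenos was 0.18 and 0.11 and with Selenok -0.17 and 0.18 on the normal and MSE diets. Its closest relation among the 9 genes was with Txnrd1 on MSE, at r = -0.86 (rho -0.71, exact p 0.00196, adjusted 0.141, and -0.69 without the 2 farthest mice), and on the normal diet r was 0.11 (rho 0.07, exact p 0.798). That the diets differ in this was not tested. Over all genes, with the mean of each diet removed, those most like Selenof over the 16 mice were Prdm11 (r = 0.84), Tmem266 (0.82), Hoxa11os (0.82), Muc20 (0.82) and Gm32926 (0.80). The most opposed were Mysm1 (r = -0.87), Nbr1 (-0.82), Gimap6 (-0.81), Acot8 (-0.80) and Tmem135 (-0.80). These are the extremes of 18194 genes and are given as a description.

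Each gene was then set against the other genes of its role, within each diet. For the ER genes the list held 11 measured genes of folding control and ER-associated degradation. Selenos ran with Syvn1, the ubiquitin ligase of that pathway, at r = 0.96 on the normal diet (rho 0.90, exact p 4.96e-04) and r = 0.86 on MSE (rho 0.67, exact p 0.00818). With Sel1l, the adaptor of that ligase, Selenos had r = 0.88 and 0.79 (rho 0.71 and 0.79, exact p 0.00573 and 0.0212). With the membrane channel gene Derl3 it had r = 0.89 and 0.74 (rho 0.83 and 0.93, exact p 0.00335 and 0.0197). Selenok had r = 0.91 and 0.78 with Syvn1 (rho 0.83 and 0.60, exact p 0.00198 and 0.0187) and r = 0.94 and 0.72 with Sel1l (rho 0.79 and 0.64, exact p 0.00265 and 0.0469). With Derl2, Selenos had r = 0.86 and 0.68 and Selenok r = 0.89 and 0.66 (rho 0.90, 0.29, 0.69 and 0.50, exact p 0.00360, 0.0625, 0.00384 and 0.0647). Over all 8 mice of a diet the relation was not general to the list. With Derl1, a relative of Derl2 and Derl3, Selenos had r = 0.17 and 0.26 (rho 0.24 and 0.29, exact p 0.717 and 0.525). With Ubxn8 Selenos had r = -0.62 and -0.23 (rho -0.52 and -0.33, exact p 0.0972 and 0.591). Without the 2 farthest mice r was 0.00 and 0.69 with Derl1 and 0.37 and -0.46 with Ubxn8, so these values too depend on those mice. With Vcp, the gene of p97, Selenos had r = 0.40 and 0.49 and Selenok r = 0.54 and 0.33 (rho 0.21, 0.26, 0.33 and 0.19, exact p 0.327, 0.211, 0.163 and 0.449). Without the 2 farthest mice r was 0.35, -0.25, 0.55 and -0.71. With Zdhhc6, Selenok had r = 0.55 and 0.09 (rho 0.48 and 0.38, exact p 0.161 and 0.836), and 0.26 and -0.40 without those mice. After adjustment over all 178 tests of this kind 0 passed. The smallest adjusted p was 0.0872, shared by 8 tests, 7 of them Selenos or Selenok on the normal diet. Without the 2 mice farthest from the median, Selenos had r = 0.88 and 0.87 with Syvn1, 0.62 and 0.88 with Sel1l, 0.61 and 0.86 with Derl3, and 0.81 and 0.55 with Derl2. On the same check Selenok had r = 0.78 and 0.68 with Syvn1, 0.80 and 0.73 with Sel1l, and 0.61 and 0.46 with Derl2. Several of these relations thus rest in part on those mice.

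**Figure D4:**
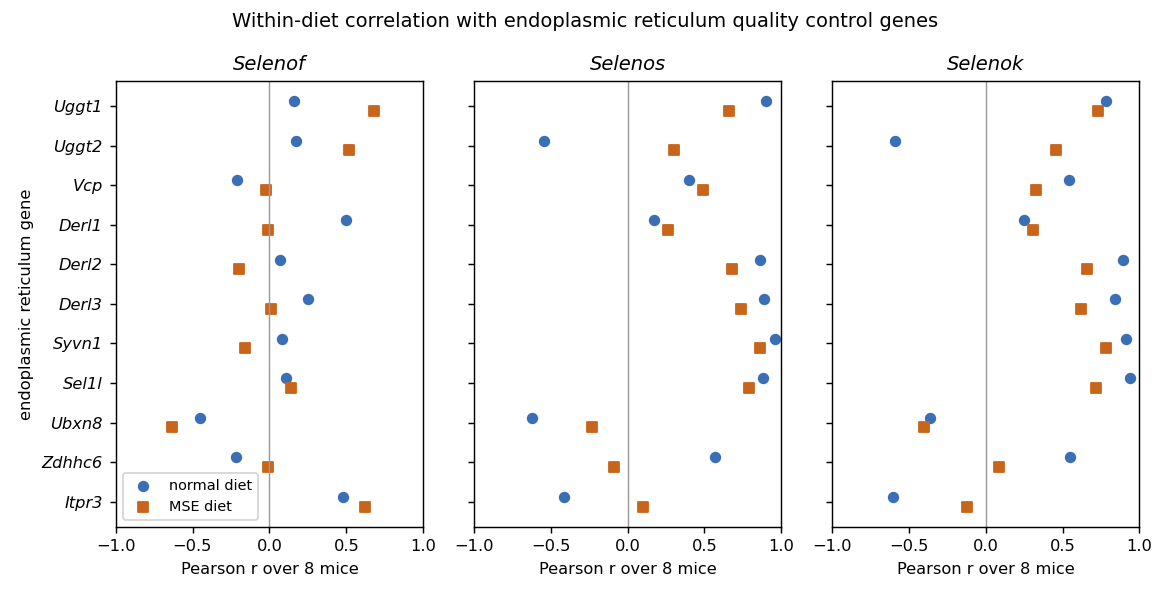
Pearson r over the 8 mice of each diet between Selenof, Selenos or Selenok and 11 ER genes. For Selenos and Selenok, Uggt1, Derl2, Derl3, Syvn1 and Sel1l lie at 0.62 or above in both diets, and for Selenof the values lie from -0.63 to 0.68.

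Selenof and the same 11 genes gave a median r of 0.11 and -0.01, with 0 tests at an exact p under 0.05. With Uggt1, the protein it binds, Selenof had r = 0.16 on the normal diet and r = 0.68 on MSE (rho -0.05 and 0.60, exact p 0.712 and 0.0654). Without the 2 farthest mice these were -0.50 and 0.25. For the other roles the largest correlation was Gpx1 with Gclm, a subunit of the enzyme that starts glutathione synthesis, at r = 0.88 on the normal diet (rho 0.83, exact p 0.00392, adjusted 0.0872), and 0.59 without the 2 farthest mice. On MSE the same pair had r = 0.01 (rho 0.31, exact p 0.973). Txnrd2 and Prdx3, the mitochondrial peroxiredoxin, had r = 0.76 and 0.68 (rho 0.83 and 0.62, exact p 0.0253 and 0.0745, adjusted 0.225 and 0.457). Dio1 and 9 genes of thyroid hormone action gave 0 tests at an exact p under 0.05 in either diet, and so did Selenop and 7 genes of selenium uptake and recycling.

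The pathway around the 9 genes was described from 7 lists with 71 measured genes, of which 26 had a higher and 45 a lower mean with MSE. In limma's fit over all genes 0 of them passed at an adjusted p under 0.05. At an unadjusted p under 0.05 stood 4 higher and 2 lower, beside 2.59% and 4.07% of all genes. The median difference of the lists ran from -0.30 to 0.08 SDs, beside -0.02 over all genes.

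Of the 14 other selenoprotein genes measured, 4 were higher and 10 lower, with a median of -0.23 SDs. Selenoi, an ethanolamine phosphotransferase of membrane lipid synthesis, was 1.25 SDs higher with MSE, in 51 of 64 pairs (limma unadjusted p 0.0215, adjusted 0.682), but 0.08 SDs after quantile normalization. Selenot, an ER oxidoreductase, differed by -1.30 SDs (unadjusted p 0.0546, adjusted 0.755) and Selenoh by -0.73 SDs (adjusted p 0.852). Selenot turned direction after centring, and Selenoh after centring and after quantile normalization. Selenow, whose mRNA like that of Gpx1 is known to be sensitive to selenium, differed by 0.43 SDs.

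The 10 measured genes that make and insert selenocysteine had small differences: 3 were higher and 7 lower, between -0.46 and 0.62 SDs, and 0 had an unadjusted p under 0.05. They include Secisbp2, which binds the mRNA hairpin (-0.46 SDs), Eefsec, the elongation factor for selenocysteine (-0.45 SDs), and Elavl1, an RNA-binding protein (0.62 SDs). The direction of Secisbp2 and Eefsec turned after centring. Of 7 genes of selenium uptake and recycling, Scly, the lyase that frees selenium from selenocysteine, was 1.06 SDs higher in 50 of 64 pairs (unadjusted p 0.0461, adjusted 0.739). Lrp2, a kidney receptor for Selenop, and Slc7a11, the cystine transporter, differed by -0.61 and -0.59 SDs, and both turned after centring.

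Partners in redox chemistry had differences in both directions. Txnip, the inhibitor of thioredoxin, was 1.15 SDs higher (unadjusted p 0.0323, adjusted 0.713), in 51 of 64 pairs. The glutaredoxin gene Glrx differed by -1.26 SDs, with the MSE mouse lower in 53 pairs (unadjusted p 0.0209, adjusted 0.680), and Glrx2 by -0.78 SDs. Quantile normalization left 0.72 SDs for Txnip and -0.12 SDs for Glrx, and centring -0.64 SDs for Glrx. Of 11 genes of glutathione and peroxide removal, Ggct, a gamma-glutamyl cyclotransferase, was 1.35 SDs higher (unadjusted p 0.0144, adjusted 0.629), Gsr, glutathione reductase, 0.70 SDs higher, and Gclm differed by -0.73 SDs. Quantile normalization left 0.61, 0.27 and -0.30 SDs for these genes. Among the 11 ER genes, Uggt1 differed by -1.34 SDs, lower in 55 of 64 pairs (unadjusted p 0.0152, adjusted 0.630), Derl3 by -0.72 SDs (-0.11 after quantile normalization) and Sel1l by -0.64 SDs. Uggt1 turned to higher after quantile normalization, as did Secisbp2, Lrp2, Glrx2, Thrb and Me1, and Glrx2 and Thrb turned after centring too. The 9 genes of thyroid hormone action lay between -0.50 (Thrb, a thyroid hormone receptor) and 0.24 SDs, with Me1 at -0.38 and Thrsp at -0.33 SDs, and 0 had an unadjusted p under 0.05.

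**Figure D5:**
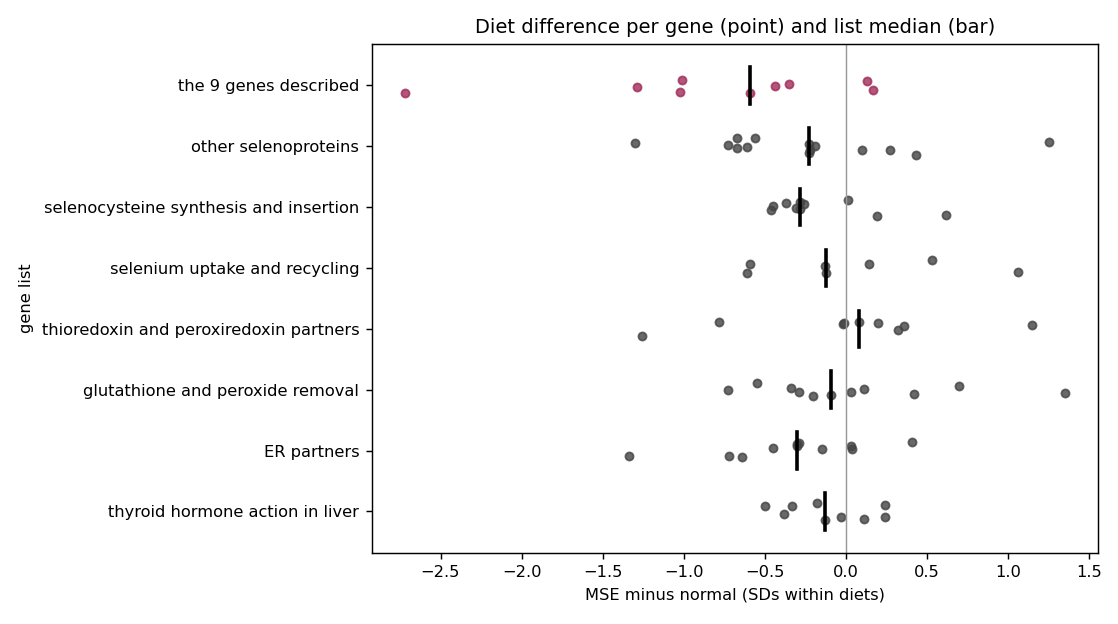
Diet difference (MSE minus normal, in SDs within diets) of each gene, by list, with a bar at the list's median. The 9 selenoprotein genes have a median of -0.59 SDs and the 7 other lists medians of -0.30 to 0.08 SDs.

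Of the markers of other liver cells 0 passed limma's adjusted test, and their directions are given as values. All 7 Kupffer cell markers measured had a lower mean with MSE (median -0.35 SDs) and all 4 neutrophil markers (median -0.65 SDs), with 0 at an unadjusted p under 0.05. The mean z value over the Kupffer list ran from -1.04 to 1.01 on the normal diet and from -1.06 to 0.94 on MSE. All 5 stellate cell markers had a higher mean (median 0.44 SDs), and 4 of 6 sinusoidal endothelial markers, of which 3 were higher and 1 of the other 2 lower at an unadjusted p under 0.05, beside 2.59% higher and 4.07% lower over all genes. The part of cell composition in the selenoprotein values was not tested, and in whole liver fewer cells of a type and less RNA per cell cannot be told apart.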

How the data were processed

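The authors deposited log2 scale expression values for 45101 probe sets of 16 arrays, which run from 5.05 to 14.6, a range from which the base was inferred. The submitters' processing notes name R 3.2.2. How probe sets were summarized and normalized was not stated in the labels or files. A further deposited table holds the authors' false discovery rates per probe set, treated as a score because some exceed 1. The tables held the same values (largest difference 0, compared as sorted values within each diet).

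Of the probe sets, 34958 named 1 gene in the platform annotation, 932 named several genes and 9211 were unlisted, and both kinds were left out. The probe set with the highest mean stood for each of 18194 genes. For the diets, limma 3.58.1 was run under R 4.3.3 over all genes (two-sided, Benjamini-Hochberg adjustment, threshold 0.05), after a test on simulated data. Correlations used exact two-sided permutation of the 8 mice of a diet (Python 3.11.15, NumPy 2.4.6), with 40320 orders and a smallest possible p of 4.96e-05, and plots matplotlib 3.10.9.

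The selenoprotein genes and the pathway lists were chosen with earlier results of these data known. Named were all 9 genes, up to 3 genes of each list with the smallest limma p, and the 5 genes most and 5 least like Selenof. Selenow, Derl1, Derl2, Syvn1, Ubxn8, Prdx3, Vcp and Zdhhc6 were named after their values were seen. The settings varied were array scaling (quantile normalization or centring on medians), averaging of probe sets, a filter to the brighter genes, limma's intensity trend, the replicate number as a block, and each mouse left out. Centring without MSE replicate 6, the Selenos and Selenok probe set combinations and the correlations with role lists were chosen after seeing the data.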

Additional observations from a re-analysis of the deposited data

Results flagged for a closer look

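Of 18 groups of 8 mice tested, 1 group of 1 gene held a mouse whose gap to the rest exceeded Dixon's critical value for 8 samples. About 1 group in 20 does so by chance. In the MSE group Dio1 of replicate 1 was the highest, with a gap to the next mouse of 0.700 of the group's range. The same mouse was the lowest MSE mouse for Selenos and for Selenok.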

How the results depend on the processing

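Over all genes limma called 0, against 3 after quantile normalization, 1 among the brighter genes alone, 1 with the replicate block and 0 to 2 when a mouse was left out (2 genes when this was replicate 2 of the normal diet, 1 gene when it was replicate 7 of MSE). At an unadjusted p under 0.05 stood 471 higher and 741 lower genes as deposited, 780 higher after quantile normalization, 157 higher and 73 lower after centring, and 266 higher among the brighter genes, where fewer genes are tested. Centring without MSE replicate 6 gave 112 higher and 171 lower. Leaving out a mouse gave 394 to 539 higher and 626 to 855 lower. Of the 71 pathway genes, 4 higher and 2 lower had an unadjusted p under 0.05. The higher count was 7 after quantile normalization, 2 with the replicate block, 1 after centring without MSE replicate 6 and 2 to 5 when a mouse was left out. The lower count was 0 after centring and 2 to 6 when a mouse was left out. Of the correlations among the 9 genes 0 passed, against 45 after centring and 29 after centring without MSE replicate 6. Centring subtracts 1 value per array from every gene, and for genes whose spread is far below that of the array medians it leaves mainly that shared value.

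Differences that turned, in SDs, were as follows. After quantile normalization they were 0.82 (Selenos), 0.81 (Selenok), 0.65 (Txnrd1), 0.21 (Txnrd2), 0.45 (Selenoh), 1.43 (Secisbp2), 0.13 (Lrp2), 0.74 (Glrx2), 0.97 (Uggt1), 0.22 (Thrb) and 0.37 (Me1), while Gpx4 and Dio1 had a difference of 0.00 and Selenop and Gpx1 no spread left. After centring they were 0.18 (Selenof), 0.01 (Selenok), 0.41 (Gpx1), 0.32 (Txnrd1), 0.39 (Selenot), 0.02 (Selenoh), 0.37 (Eefsec), 0.40 (Secisbp2), 0.35 (Lrp2), 0.33 (Slc7a11), 0.38 (Glrx2) and 0.35 (Thrb). Centring without MSE replicate 6 turned Selenop to -0.05, and the mean of all probe sets turned Secisbp2 to 0.20. Leaving out a mouse gave -0.01 to 0.46 for Selenop and -0.67 to 0.25 for Dio1, and turned 0 of the other 7 selenoprotein genes. Selenof kept its sign but stood at -0.30 after quantile normalization, and centring moved Selenop to 0.43 and Dio1 to 0.39. Centring takes the diet difference of the array medians, -13.1 millionths, from the difference of every gene. The cause of the other changes was not tested. Same-numbered mice had deviations correlated at -0.03 to 0.22, not over 0.1 in every pair, so the numbers were not taken to pair the mice. Still, 5 of 8 MSE mice correlated best with their own number. The mice were pair-fed, but the labels do not name the feeding pairs, so whether the numbers follow them was not tested. With the replicate number as a block, limma's fit gave 643 higher and 971 lower genes at an unadjusted p under 0.05, against 471 and 741. Each number holds 1 mouse of each diet, so the block leaves every mean difference unchanged and could turn no gene. It changes only the SD, to the spread left after the block. In these SDs Gpx4 stood at -2.36 and Selenot at -3.15.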
